A study of Mus musculus with 2 samples.

Results

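Imprinted genes are transcribed mainly or only from the chromosome inherited from one parent, and 39 of them were followed here, of 43346 mouse genes measured in the lung of the E14.5 mouse embryo. The members were taken from a list of 40 symbols and matched by gene identifier to the GENCODE mouse annotation of build GRCm38 (mm10). The remaining symbol, Zac1, is an older name of Plagl1 in RefSeq and has no entry of its own. The list rests on what is known of imprinting, and its rule uses no value measured here, but it was chosen with earlier results of these data known. By their known pattern, which for some holds only in other tissues, 21 members are classed as paternally expressed and 16 as maternally expressed. The other 2 (Gnas and Grb10) are expressed from either or both chromosomes, depending on the transcript. The members lie in 17 loci, and 33 of them are protein-coding.

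The series holds a single group of 2 libraries of total RNA from whole lung of strain B6NCrl at 14.5 days of gestation, with no treatment, mutation or other age. The labels describe each as a single lung from an embryo of a different collection day, 15 and 17 July, yet give the sex as pooled male and female, so the number of embryos behind a library is not certain. Each library was made from 10.0 ng of RNA longer than 200 nt with added spike-in RNA. Summed expected counts over mouse genes were 31940637 in replicate 1 and 33167255 in replicate 2. All comparisons below are therefore between genes, between transcripts of a gene, or between these 2 libraries, and replicate 1 stands over replicate 2 in each ratio.

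Imprinting rests on DNA methylation set in the germ line at imprinting control regions. At such a region the methylated chromosome differs from the unmethylated one in which promoters, insulators or long noncoding RNAs are active, so that neighbouring genes are often expressed from opposite chromosomes. Many imprinted genes act on fetal growth: those expressed from the paternal chromosome often promote it and those expressed from the maternal chromosome often restrain it. Several members are imprinted only in placenta or in neurons and are transcribed from both chromosomes elsewhere. The deposited tables hold no allele counts, so the parental pattern named for each gene is background and was not measured in these libraries.

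The tissue label was checked against marker genes. The lung epithelial markers Sftpc (surfactant protein C; 2127 TPM in replicate 1 and 2184 in replicate 2) and Nkx2-1 (74.4 and 76.9 TPM), with Epcam (226 and 226 TPM) and Sox9 (64.0 and 61.1 TPM), were present in both libraries. So were the lung mesenchymal markers Tcf21 (186 and 182 TPM), Foxf1 (131 and 146 TPM), Tbx4 (53.45 and 59.4 TPM) and Tbx5 (36.1 and 39.3 TPM). Of these, Tcf21 was slightly higher in replicate 1, and Foxf1, Tbx4 and Tbx5 were slightly lower. Heart muscle markers stood apart: all 6 (Myl7, Myh6, Nppa, Actn2, Mybpc3 and Tnni1) were higher in replicate 1, with a summed level of 387 TPM against 28.7 TPM in replicate 2, and Nppa was at 0 counts in replicate 2. Of 4 skeletal muscle markers, Myl1 and Ckm were higher in replicate 1, with a summed level of 17.0 and 2.77 TPM, while Myod1 and Myog stayed at 0.08 TPM or less. The 3 mesothelial markers summed to 41.8 TPM in replicate 1 and 37.2 in replicate 2, and among them Msln (2.98 and 1.24 TPM) was 2.49-fold higher in replicate 1. The 3 endothelial markers summed to 180 and 177 TPM, and the 3 blood markers to 7838 and 8072 TPM. The 4 liver markers summed to 3.10 TPM in replicate 1 and 7.12 in replicate 2, and among them Afp (1.62 and 3.62 TPM) and Apoa1 (0.62 and 1.62 TPM) were called lower in replicate 1 at 2-fold. The 5 neuronal markers summed to 11.8 and 8.25 TPM, and the 5 trophoblast markers to 0.60 and 0.62 TPM, with Tpbpa and Prl3d1 at 0 counts in both. The part of these other tissues in the values below was not tested. In whole tissue, more cells expressing a gene and more RNA per cell cannot be told apart.

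The 39 listed imprinted genes were abundant as a set in the fetal lung. This holds for the list and not for imprinted genes in general: 43 other imprinted genes, described below, had a median of 7.57 TPM. TPM counts a gene's transcripts relative to all others in a library, spike-in RNA included, after correction for transcript length. Levels of different genes in a library can thus be set side by side. At least 1 TPM in both libraries was reached by 35 of 39 members (89.7%), against 58.8% of 21474 protein-coding genes and 33.0% of all mouse genes. The median level of the members was 30.8 TPM, against 4.10 TPM for protein-coding genes and 0.065 TPM for all mouse genes. A mean of at least 100 TPM was reached by 12 members (30.8%), against 6.96% of protein-coding genes. A further 13 members lay between 10 and 100 TPM, 10 between 1 and 10 TPM, and 4 (Klf14, Rtl1, Slc22a18 and Usp29) below 1 TPM. Together the members summed to 6119 TPM in replicate 1 and 6316 in replicate 2, which was 0.687% and 0.693% of the TPM of mouse genes.

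**Figure D1:**
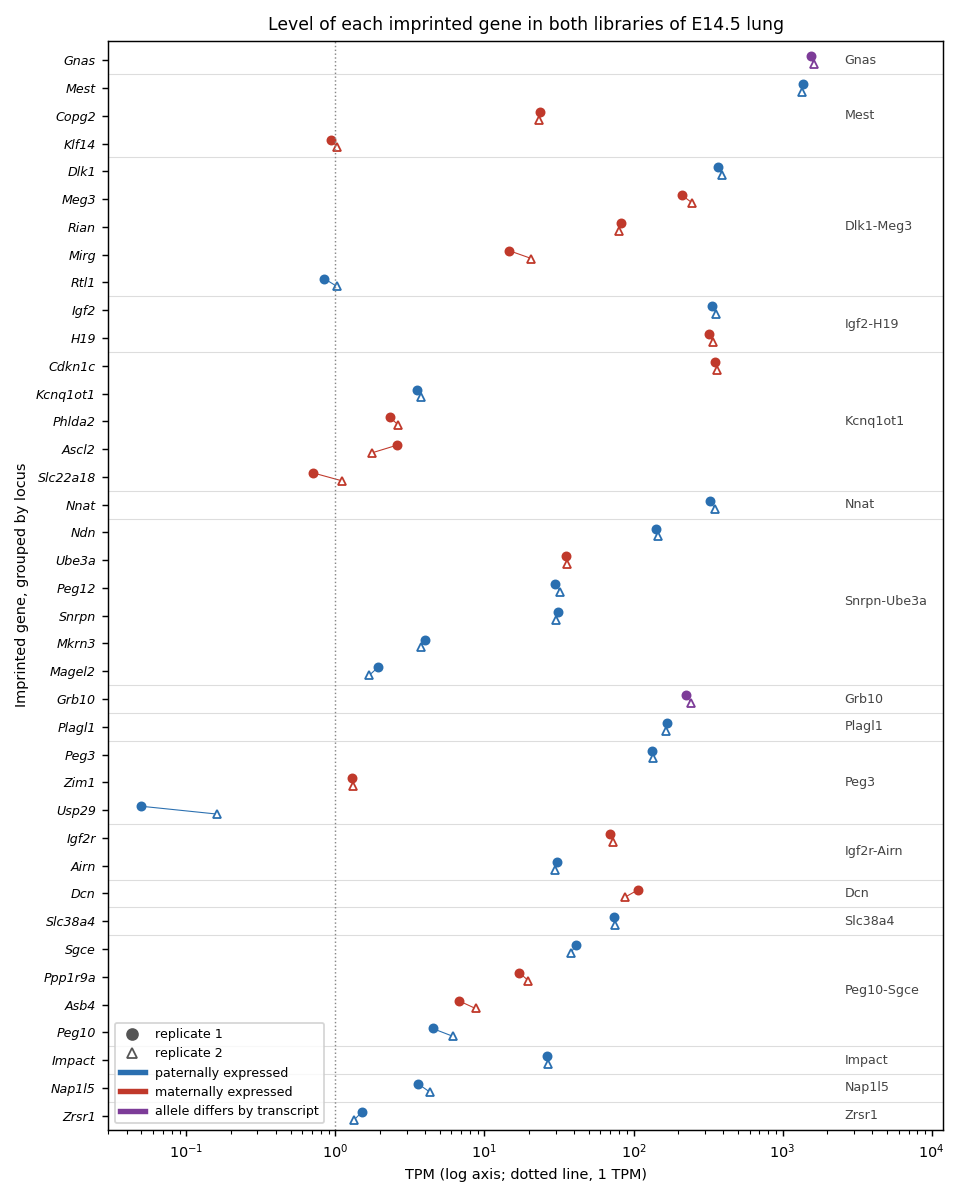
Level of each of the 39 imprinted genes in TPM on a log axis, grouped by locus with the most abundant locus at the top; filled circles are replicate 1, open triangles replicate 2, and colour gives the known parental pattern. Levels run from 0.05 TPM for Usp29 to 1617 TPM for Gnas.

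Paternally expressed members had a median level of 30.8 TPM over 21 genes, and maternally expressed members one of 21.0 TPM over 16 genes. Their summed levels were 3093 TPM in replicate 1 and 3147 in replicate 2 for paternally expressed genes, and 1253 and 1308 TPM for maternally expressed genes. Mest, the most abundant paternally expressed member, made up 1361 TPM of the paternal sum in replicate 1 and 1340 TPM in replicate 2. Gnas and Grb10, counted in neither class, added 1773 TPM in replicate 1 and 1861 in replicate 2. These classes do not measure expression by parent in lung. The maternal class holds Ube3a, imprinted in neurons, Dcn, maternally expressed in placenta, and Copg2, biased in some tissues. It leaves out Grb10, which is maternally expressed in most fetal tissues.

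Gnas was the most abundant member, with 1548 TPM in replicate 1 and 1617 in replicate 2, a mean of 1583 ± 49.2 TPM (SD, n = 2), and it ranked at position 50 among all mouse genes by mean TPM. The gene lies on the plus strand at chr2:174284320-174346744 and makes several products from alternative first exons joined to shared downstream exons. The products are the stimulatory G protein subunit Gs-alpha, from exon 1 and expressed from both chromosomes in most tissues; the secretory protein NESP55, from the most upstream, maternally expressed start; the long form XL-alpha-s, from a paternally expressed start; and the paternally expressed noncoding exon 1A transcripts. Annotated transcripts were grouped where their starts lay within 1000 nt of each other, which gave 6 start groups.

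Nearly all of the Gnas signal was assigned to exon 1. Starts between 174330006 and 174330287, those of Gs-alpha, held 94.8% of the gene's TPM in replicate 1 and 95.3% in replicate 2. The NESP55 start group, beginning at 174284320, held 1.94% and 1.66%. The XL-alpha-s group, starting at 174297859, held 0.530% and 0.469%, and the exon 1A group 2.03% and 1.68%. Exon 1 transcripts averaged 1504 ± 52.6 TPM and NESP55 transcripts 28.4 ± 2.21 TPM (SD, n = 2 for each). XL-alpha-s transcripts averaged 7.90 ± 0.438 TPM and exon 1A transcripts 29.3 ± 3.11 TPM. Each alternative start thus had a measurable level, far below that of exon 1.

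Gs-alpha mRNA itself comes in a long and a short form that differ by the inclusion of a 45-base exon, at chr2:174336747-174336791, and the long form was the major one. The sequences below show the junction in 3 transcripts of the exon 1 group, 5′ to 3′ on the plus strand, with the bases that Gnas-206 lacks in capitals. They were read from GENCODE transcript sequences of build GRCm38.
Gnas-208: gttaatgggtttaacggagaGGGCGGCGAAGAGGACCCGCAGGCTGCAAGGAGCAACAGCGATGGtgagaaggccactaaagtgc
Gnas-207: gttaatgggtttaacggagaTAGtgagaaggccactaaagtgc
Gnas-206: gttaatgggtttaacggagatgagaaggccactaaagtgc
Gnas-208 carries the exon and has a coding length of 1182 nt. Gnas-207 skips it but keeps 3 bases at chr2:174341650-174341652, and Gnas-206 skips both, with coding lengths of 1140 and 1137 nt. Gnas-208 held 76.8% of the gene's TPM in replicate 1 and 77.5% in replicate 2, Gnas-206 held 10.0% and 9.36%, and Gnas-207 held 8.03% and 8.45%. Among these mRNAs the form with the exon made up 81.0% in replicate 1 and 81.3% in replicate 2, a mean of 81.2 ± 0.243% (SD, n = 2). Of the start upstream of exon 1, Gnas-211, a spliced NESP55 mRNA, was the leading transcript with 1303 and 1085 counts. The antisense noncoding gene Nespas, which overlaps Gnas from the opposite strand, had 6.66 TPM in replicate 1 and 8.79 in replicate 2. The sources used here do not say whether counting used strand, but Mest and Copg2, described below, shared reads across strands.

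The start that NESP55 uses can be shown as the 100 bases before it, at chr2:174284220-174284319 on the plus strand, from RefSeq promoter windows of build GRCm38.p6, with CG dinucleotides, the sites of DNA methylation, in capitals.
Gnas NESP55 start: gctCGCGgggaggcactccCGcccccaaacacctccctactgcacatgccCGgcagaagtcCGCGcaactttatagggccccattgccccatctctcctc
A window of 300 bases around this start, 250 before and 50 after it, held 16 CG dinucleotides, and the same window at the exon 1 start at 174330006 held 40. The median over the 32851 windows of all genes was 7, and 3.91% of them held as many as 40.

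Mest, a paternally expressed gene for a putative alpha/beta hydrolase and a marker of fetal mesoderm, was the next most abundant member, with 1361 TPM in replicate 1 and 1340 in replicate 2. Its mean of 1351 ± 14.9 TPM (SD, n = 2) placed it at rank 73 of all mouse genes. The gene lies on the plus strand at chr6:30723547-30748465. Starts between 30738050 and 30738055 held 97.5% and 98.1% of its TPM, and Mest-211, with a coding length of 1005 nt, alone held 92.2% and 92.0%. The most upstream start group, at 30723547, had 9.23 counts in replicate 1 and 0 in replicate 2, of 70368 and 69542 counts for the gene.

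The 3′ end of Mest overlaps that of its neighbour Copg2, on the opposite strand, by 912 bases that are exonic in both genes. Copg2, which codes for a subunit of the COPI coat of Golgi vesicles and is a maternally biased gene in some tissues, had 23.7 TPM in replicate 1 and 23.4 in replicate 2. Mest was thus 57.3 times as abundant as Copg2 in both libraries. The deposited posterior SD of both genes' counts was 17.4 in replicate 1 and 16.2 in replicate 2, which shows that the estimation shared some reads between them. Klf14, a maternally expressed intronless transcription factor gene of the same region, had 0.94 TPM in replicate 1 and 1.03 in replicate 2, from 62 and 68 counts.

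The Igf2 and H19 pair shares enhancers and a methylated insulator, which steers the enhancers to Igf2 on the paternal chromosome and to H19 on the maternal chromosome. Igf2, the gene for the fetal growth factor insulin-like growth factor 2, had 338 TPM in replicate 1 and 360 in replicate 2, a mean of 349 ± 15.8 TPM (SD, n = 2). H19, a noncoding RNA and host of miR-675, had 323 TPM in replicate 1 and 340 in replicate 2, a mean of 331 ± 12.1 TPM. Igf2 stood at 1.05 times H19 in replicate 1 and 1.06 times in replicate 2, and the ranges of the 2 genes overlapped. Igf2 lies at chr7:142650766-142666816 and H19 at chr7:142575529-142578143, both on the minus strand.

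The level of Igf2 depends on how reads were shared among its transcripts. All transcripts with a coding length of 540 nt encode the same length of precursor but differ in first exon and in the length of the 3′ end. Igf2-203, a 650-nt model from the most upstream start, held 33.8% of the gene's TPM in replicate 1 and 33.4% in replicate 2, although only 13.4% and 13.7% of its counts. Igf2-208, a 958-nt model with no coding sequence and no exonic base of its own, held 36.8% and 39.0% of TPM and 22.8% and 24.9% of counts. By counts the leading model was Igf2-205, of 4722 nt, with 37.0% and 35.9%, followed by Igf2-202, of 2503 nt, with 23.0% and 22.1%. Models under 1000 nt together held 74.8% of Igf2 TPM in replicate 1 and 76.4% in replicate 2. Counting only models of 1000 nt or more, a choice made after these values were seen, Igf2 had 85.1 TPM in replicate 1 and 84.8 in replicate 2.

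The 6 Igf2 start groups, numbered from the most upstream, therefore differ in order between units. Group 1, starting at 142666816, and group 6, starting at 142653030, led by TPM with means of 33.6 ± 0.230% and 37.9 ± 1.57% (SD, n = 2). Group 3, starting at 142659489, led by counts with a mean of 36.5 ± 0.761%. Among models of 1000 nt or more, group 4, whose starts lie between 142657466 and 142657496, held 55.1% in replicate 1 and 54.9% in replicate 2, and group 3 held 44.1% and 44.5%. Group 1 was among the leaders by TPM, and group 4 led among models of 1000 nt or more, which leave out the only model of group 1. The 100 bases before the start of group 1, at chr7:142666817-142666916, and before that of group 4, at chr7:142657497-142657596, are shown on the minus strand with CG in capitals.
Igf2 group 1: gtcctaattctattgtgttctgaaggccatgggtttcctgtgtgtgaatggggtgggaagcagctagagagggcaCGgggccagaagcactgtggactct
Igf2 group 4: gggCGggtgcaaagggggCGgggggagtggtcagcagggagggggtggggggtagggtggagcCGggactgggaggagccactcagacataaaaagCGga
The 300-base window of group 1 held 2 CG dinucleotides and no GGGCGG, the core of the binding site of Sp1 family factors, on either strand. That of group 4 held 7 and 2. GGGCGG was found in 35.7% of the windows of all genes.

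H19 read differently by level and by count. Replicate 1 had 11315 counts and replicate 2 had 11189, which after scaling was 1.06-fold higher in replicate 1, while TPM was lower in replicate 1. The deposited mean length of its transcripts was 1671 nt in replicate 1 and 1569 nt in replicate 2. Spike-in RNA, which the TPM total includes, had 1660449 counts in replicate 1 and 1367865 in replicate 2. The part of either in this difference was not tested. The 817-nt model H19-203 held 14.1% of counts in replicate 1 and 18.6% in replicate 2, H19-202 held 44.6% and 38.3%, and H19-205 held 41.3% and 43.1%.

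Igf2r and Airn form the reciprocal pair of chromosome 17. Igf2r, maternally expressed, codes for the receptor that binds insulin-like growth factor 2 and carries it to the lysosome, and it had 69.2 TPM in replicate 1 and 73.1 in replicate 2. Airn, the paternally expressed noncoding RNA that starts inside Igf2r on the opposite strand and silences it in cis, had 30.7 TPM in replicate 1 and 29.9 in replicate 2. Igf2r was 2.25 and 2.45 times Airn. In counts, however, Airn had 583 in replicate 1 and 599 in replicate 2, against 13126 and 13625 for Igf2r. The mean transcript length in the tables was 950 and 994 nt for Airn, against 8611 and 8420 nt for Igf2r. The annotated Airn models share 0 exonic bases with Igf2r. Reads of Igf2r introns could still have been counted for Airn, and their share was not tested. Airn is known mainly as a long unspliced RNA, and its unspliced length was not counted in these tables. Its leading model, Airn-201 of 1113 nt, held 53.8% of its TPM in replicate 1 and 61.5% in replicate 2.

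The Dlk1-Meg3 domain of chromosome 12 held abundant RNAs of both parental patterns. Dlk1, a paternally expressed transmembrane Notch-related protein of fetal tissue and progenitor cells, had 372 TPM in replicate 1 and 395 in replicate 2, a mean of 383 ± 16.6 TPM (SD, n = 2), at chr12:109452823-109463336. The maternally expressed noncoding RNAs came next: Meg3 had 211 TPM in replicate 1 and 248 in replicate 2, Rian, host of small nucleolar RNAs, had 82.0 and 79.8 TPM, and Mirg, host of a microRNA cluster, had 14.7 and 20.6 TPM. Their levels thus stood in the order in which the genes follow each other on the chromosome, with Meg3 at 2.58 and 3.11 times Rian, and Rian at 5.59 and 3.87 times Mirg. Rtl1, a paternally expressed gene derived from a retrotransposon that is needed in placental vessels, had only 0.84 TPM in replicate 1 and 1.02 in replicate 2, from 117 and 143 counts.

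Dlk1 mRNA was mostly of the full-length form. Dlk1-205, with a coding length of 1155 nt, held 75.4% of the gene's TPM in replicate 1 and 73.9% in replicate 2. Dlk1-203 lacks 219 bases at chr12:109459893-109460111 and held 10.8% and 8.52%. Dlk1-204 lacks 285 bases at chr12:109459833-109460117 and held 4.28% and 7.62%. Splicing in this part of Dlk1 is known to remove the cleavage site that releases the soluble ectodomain. Meg3 was led by Meg3-205, of 1498 nt, with 77.8% and 77.9% of its TPM.

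The microRNAs of these loci were outside the measured size range. RefSeq places 29 microRNA hairpins inside members, of which 14 lie in Mirg, 7 in Rtl1 (6 of them on the opposite strand) and 3 in Rian. Counted separately, 56 mature sequences with 55 distinct seeds lie inside members. Those in Meg3 come from Mir1906-1 and Mir770, although only 1 hairpin is counted for Meg3. The only seed shared by different microRNAs is that of miR-453 and miR-496a-5p, both in Mirg. The hairpin genes had summed counts of 0 in both libraries in each of the 8 host genes, and most have an effective length of 0 in the tables. Mature sequences of 4 of them are shown 5′ to 3′ with the seed, bases 2 to 8, in capitals, since their hosts H19, Mest and Mirg are members and miR-127 lies opposite the member Rtl1.
miR-675-5p: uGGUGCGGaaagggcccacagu
miR-335-5p: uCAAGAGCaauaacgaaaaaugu
miR-127-3p: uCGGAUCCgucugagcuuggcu
miR-134-5p: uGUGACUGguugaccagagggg
For Rtl1, counts of the gene and of the maternally expressed RNA opposite it cannot be told apart unless strand was used in counting. Mest and Copg2, which lie on opposite strands, shared reads, so strand did not keep all reads of that pair apart.

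In the Kcnq1ot1 domain of chromosome 7 a single member was abundant. Cdkn1c, a maternally expressed cyclin-dependent kinase inhibitor that restrains fetal growth, had 355 TPM in replicate 1 and 364 in replicate 2, a mean of 359 ± 6.34 TPM (SD, n = 2), at chr7:143458339-143461050. Cdkn1c-201 held 81.7% and 81.5% of its TPM and Cdkn1c-202 held 18.3% and 18.5%. Phlda2, a maternally expressed pleckstrin homology protein that restrains placental growth, had 2.32 and 2.65 TPM, from 34 and 39 counts. Slc22a18, a maternally expressed transporter of organic cations, had 0.71 and 1.10 TPM, from 22 and 35 counts, and by the deposited posterior mean TPM it had 1.17 and 1.66. Cdkn1c was 153 and 137 times Phlda2, so that genes of the same imprinted domain differed far more from each other than either did between libraries.

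Ascl2, a maternally expressed transcription factor gene required for trophoblast, had 2.59 TPM in replicate 1 and 1.75 in replicate 2, from 87 and 59 counts. Kcnq1ot1, the paternally expressed noncoding RNA that silences this domain in cis, had 3.52 and 3.75 TPM. Its model is a single exon of 84395 nt, and its counts were large, 6624 in replicate 1 and 7071 in replicate 2. Per 1000 nt of model this was 78.5 and 83.8 counts, against 614 and 602 for the spliced Airn models. Only 121 bases of the Kcnq1ot1 model are exonic in Kcnq1, the gene it overlaps on the opposite strand, but reads of Kcnq1 introns could have been counted for it.

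Grb10, an adaptor that restrains growth downstream of the insulin and insulin-like growth factor receptors, had 225 TPM in replicate 1 and 243 in replicate 2, a mean of 234 ± 12.99 TPM (SD, n = 2). It lies on the minus strand at chr11:11930508-12038683. The gene is expressed from the maternal chromosome in most fetal tissues, from an upstream promoter, and from the paternal chromosome in neurons, from downstream promoters. Grb10-201, of 5061 nt and starting at 12037401, held 94.2% of the gene's counts in replicate 1 and 92.8% in replicate 2. It held only 60.7% and 57.1% of TPM.

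The rest of the Grb10 TPM lay in a short downstream model. Grb10-207, a 430-nt partial model from the fourth start group, further downstream, held 37.0% of TPM in replicate 1 and 38.8% in replicate 2, on 615 and 699 counts, which were 3.83% and 4.20% of the gene's counts. It has 71 exonic bases that no other Grb10 model has. Grb10-203, of 4755 nt from the start at 12027971, held 0.60% and 1.00% of TPM. Without models under 1000 nt, a choice made after these values were seen, Grb10 had 140 TPM in replicate 1 and 144 in replicate 2, and Grb10-201 held 97.5% and 96.7%. The 100 bases before the upstream RefSeq start at 12037420, at chr11:12037421-12037520, and before the start of Grb10-203, at chr11:12027972-12028071, are shown on the minus strand with CG in capitals, to set the start with most counts beside one with few.
Grb10 upstream: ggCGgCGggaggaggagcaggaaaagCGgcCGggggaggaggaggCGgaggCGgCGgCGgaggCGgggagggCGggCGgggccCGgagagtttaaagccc
Grb10-203: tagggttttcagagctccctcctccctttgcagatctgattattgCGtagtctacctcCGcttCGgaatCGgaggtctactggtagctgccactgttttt
The 300-base windows of these starts held 45 and 9 CG dinucleotides, and 1.93% of windows of all genes held as many as 45.

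**Figure D2:**
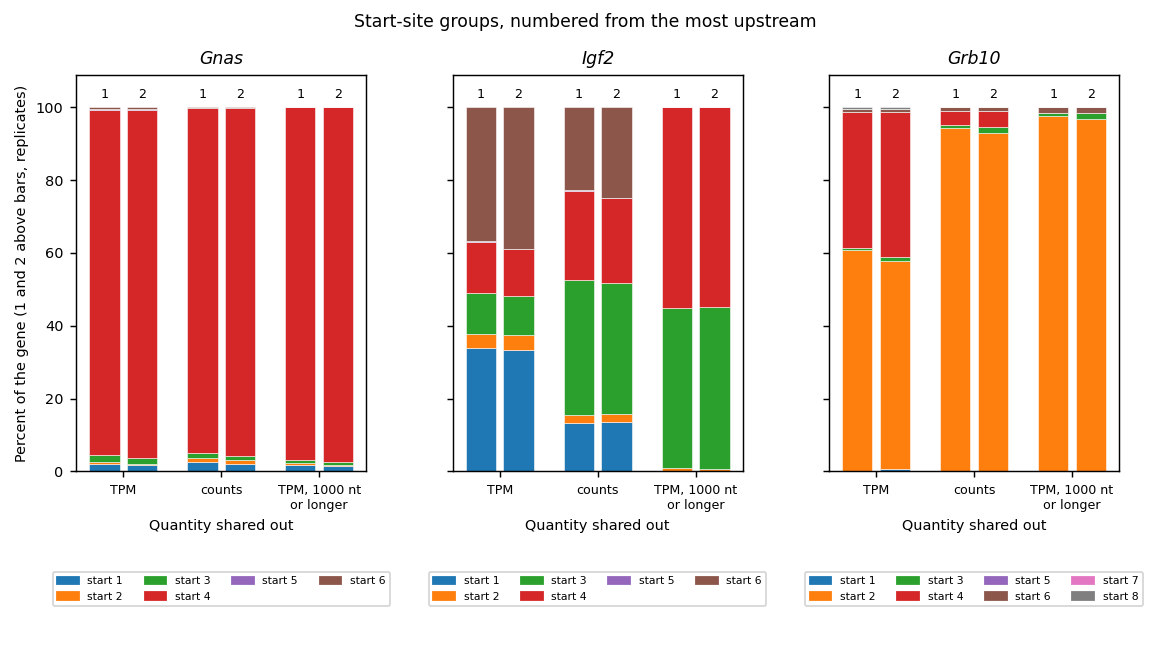
Share of Gnas, Igf2 and Grb10 held by each start-site group, in percent, numbered from the most upstream; each pair of bars is replicate 1 on the left and replicate 2 on the right, sharing out the gene's TPM, its expected counts, or the TPM of models of 1000 nt or more. Gnas keeps a single leading group in all 3, whereas Igf2 groups 1 and 6 and Grb10 group 4 hold a larger share by TPM than by counts, and none among models of 1000 nt or more.

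Plagl1, a paternally expressed zinc finger transcription factor of an imprinted gene network, had 169 TPM in replicate 1 and 166 in replicate 2, at chr10:13060504-13131694. Its starts between 13090691 and 13091013 held 98.9% and 97.9% of its TPM, and Plagl1-202 alone held 74.5% and 73.4%. The upstream start at 13060504 had 0 counts in replicate 1 and 1.78 in replicate 2, of 15061 and 14658.

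Nnat, a paternally expressed small membrane protein studied mainly in brain and endocrine tissue, had 325 TPM in replicate 1 and 350 in replicate 2, a mean of 338 ± 17.9 TPM (SD, n = 2). It lies in an intron of Blcap, which is on the opposite strand. Nnat makes an alpha and a shorter beta form that differ by an 81-base exon at chr2:157561213-157561293, shown in capitals within 20 bases of the mRNA on either side.
Nnat-202: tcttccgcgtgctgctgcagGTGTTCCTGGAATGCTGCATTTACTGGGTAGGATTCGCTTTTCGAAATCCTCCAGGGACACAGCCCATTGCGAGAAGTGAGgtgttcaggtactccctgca
Nnat-202, which has the exon, held 66.7% of Nnat TPM in replicate 1 and 63.1% in replicate 2, and Nnat-205, which skips it, held 20.8% and 24.2%. Of the sum of these forms, 76.3% in replicate 1 and 72.2% in replicate 2 had the exon.

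By TPM over all models, Igf2, H19, Cdkn1c, Nnat and Dlk1 thus formed a band of members between 323 and 395 TPM. The place of Igf2 in it depends on its short models, since models of 1000 nt or more gave 85.1 TPM in replicate 1 and 84.8 in replicate 2. Within the band the ranges of Igf2 and Cdkn1c overlapped, as did those of Igf2 with Nnat and H19, and only Dlk1 lay above all the others in both libraries.

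In the Peg3 domain of chromosome 7, Peg3 stood alone. Peg3, a paternally expressed zinc finger protein that acts in growth and maternal behaviour, had 134.0 TPM in replicate 1 and 134.4 in replicate 2, from 23434 and 23949 counts, at chr7:6703892-6730431. Zim1, a maternally expressed zinc finger gene beside it, had 1.29 and 1.31 TPM, from 90 and 92 counts. Usp29, a paternally expressed ubiquitin protease gene that starts 146 bases from Peg3 in the opposite direction, had 3 counts in replicate 1 and 9 in replicate 2, or 0.05 and 0.16 TPM. Exact Poisson intervals of these counts were 0.619 to 8.77 in replicate 1 and 4.12 to 17.1 in replicate 2, and cover counting error only. The only Usp29 model in the deposited tables is a single exon of 2610 nt that starts at 6961160, so that reads of exons upstream of it were not counted for Usp29. Peg3-201 held 85.4% and 87.5% of Peg3 TPM, and Peg3-203, annotated as a target of nonsense-mediated decay, held 12.0% and 9.68%.

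The bases between the annotated starts of Peg3, on the minus strand, and Usp29, on the plus strand, are shown at chr7:6730432-6730577 on the plus strand with CG in capitals, since both genes are annotated to start at its ends.
Peg3 to Usp29: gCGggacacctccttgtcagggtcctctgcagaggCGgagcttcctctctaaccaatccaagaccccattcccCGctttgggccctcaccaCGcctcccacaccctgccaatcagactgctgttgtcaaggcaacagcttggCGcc
This stretch held 5 CG dinucleotides. The 300-base windows of Peg3 and Usp29, which overlap, held 13 and 17, and neither held GGGCGG on either strand.

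Members of the Snrpn-Ube3a domain, the region affected in Prader-Willi and Angelman syndromes in humans, were all at or above 1 TPM. Ndn, a paternally expressed intronless gene of the MAGE family, led with 141 TPM in replicate 1 and 147 in replicate 2. Magel2, its intronless neighbour of the same family, had 1.93 and 1.69 TPM, so that Ndn was 73.2 and 87.0 times as abundant. Peg12, a paternally expressed intronless gene, had 29.95 and 32.1 TPM, and Mkrn3, a paternally expressed ring finger gene, had 3.99 and 3.74 TPM. Snrpn, which codes for a paternally expressed protein of the spliceosome, had 31.2 TPM in replicate 1 and 30.3 in replicate 2. All of its counts lay in the model starting at 60005111, and the deposited posterior SD of 9.29 and 9.26 counts shows that some reads were shared with another gene. Ube3a, a ubiquitin ligase gene imprinted in neurons and expressed from both chromosomes elsewhere, had 35.3 and 35.9 TPM.

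In the Peg10-Sgce domain of chromosome 6, Sgce, which codes for epsilon-sarcoglycan and is paternally expressed, had 40.8 TPM in replicate 1 and 38.1 in replicate 2. Peg10, a paternally expressed gene derived from a retrotransposon and essential in placenta, starts 98 bases from Sgce in the opposite direction and had 4.49 and 6.13 TPM. Sgce was thus 9.09 and 6.22 times Peg10. The counts of Peg10, 461 and 507, were closer to each other than its levels, and the deposited mean length of its transcripts was 4706 nt in replicate 1 and 3791 nt in replicate 2. A Peg10 model of 1477 nt that is not in M21 held 34.6% of its TPM in replicate 1 and 47.0% in replicate 2. Ppp1r9a, a maternally expressed actin-binding gene known from neurons, had 17.2 and 19.7 TPM, and Asb4, a maternally expressed subunit of a ubiquitin ligase, had 6.71 and 8.71 TPM.

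The remaining members without a partner on the list were Dcn, Slc38a4, Impact, Nap1l5 and Zrsr1. Dcn, which codes for the matrix proteoglycan decorin and is maternally expressed in placenta, had 108 TPM in replicate 1 and 87.2 in replicate 2. Slc38a4, a paternally expressed amino acid transporter, had 73.8 and 74.8 TPM. Impact, a paternally expressed regulator of translation, had 26.4 and 26.9 TPM. Nap1l5, an intronless paternally expressed gene within an intron of Herc3, had 3.60 and 4.28 TPM. Zrsr1, an intronless paternally expressed gene within an intron of Commd1, had 1.51 TPM in replicate 1 and 1.34 in replicate 2. Commd1 had 320 TPM and 340 TPM, so unspliced Commd1 RNA read as Zrsr1 would matter for so low a level, and the share of such reads was not tested.

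Between the libraries the members differed little. Counts were compared with an exact two-sided binomial test given library sizes scaled by TMM, a normalization that assumes most genes are equal, with Benjamini-Hochberg adjustment over all 14870 genes with a mean of at least 1 TPM. The test compares these 2 libraries and includes no spread between further replicates. Of 35 members tested, 0 had both an adjusted p under 0.05 and a 2-fold difference, against 1.14% of all genes tested. At any size 8 members did (22.9%), against 22.5% of all genes tested, so the share of members was near that of all genes. Of these, 5 were higher in replicate 1, where 11.5% of all genes were, and 3 were lower in replicate 1, where 11.0% were. Without adjustment, 10 members had p under 0.05, against 33.1% of all genes. With the edgeR exact test at the common dispersion, 0 members were called at any size and 0 had an unadjusted p under 0.05. That dispersion was estimated from the same 2 libraries taken as 1 group, so it absorbs the difference being tested. This setting therefore cannot decide whether the members differ.

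The median log2 ratio of the 35 members was 0.02, against 0.00 for all genes tested, and 32 members (91.4%) lay within 1.25-fold, against 86.3% of all genes. Paternally expressed members had a median log2 ratio of 0.03 and maternally expressed members one of 0.03. Dcn, with 4295 counts in replicate 1 and 3488 in replicate 2, was 1.29-fold higher in replicate 1 (adjusted p = 5.1e-26, exact binomial test). With library sizes from the spike-in RNA it was not called, with a log2 ratio of 0.02 (adjusted p = 0.58, exact binomial test). Heart muscle markers and the mesothelial marker Msln were higher in the same library, by the values given above, and their part in this difference was not tested. Ascl2, with 87 and 59 counts, was 1.54-fold higher in replicate 1 (adjusted p = 0.046). Its adjusted p was 0.066 with no filter on low values, 0.054 with sizes from summed counts and 0.32 with spike-in sizes, where its log2 ratio was 0.28, so the call for this gene rests on those choices. Plagl1 was 1.07-fold higher (adjusted p = 5.6e-08), and Mest and H19 were each 1.06-fold higher (adjusted p = 1.3e-22 and 0.00058) in replicate 1 by count.

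Lower in replicate 1 were 3 maternally expressed members. Mirg, with 350 counts in replicate 1 and 463 in replicate 2, had a log2 ratio of -0.34 (adjusted p = 0.0066). Its domain neighbour Meg3, with 8284 and 9492 counts, had a log2 ratio of -0.13 (adjusted p = 3.1e-08), while Rian, which lies between them, had one of 0.07 (adjusted p = 0.19), from 3194 and 3188 counts. Asb4, with 446 and 570 counts, had a log2 ratio of -0.29 (adjusted p = 0.0096). With library sizes taken from the spike-in RNA the median of all genes moved by -0.34, and Mest, H19 and Plagl1 then had log2 ratios of -0.26, -0.26 and -0.24, lower in replicate 1, while Mirg, Meg3 and Asb4 had -0.68, -0.48 and -0.63. Relative to that shift the order of the members was the same, since a scaling adds a constant to each log2 ratio.

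**Figure D3:**
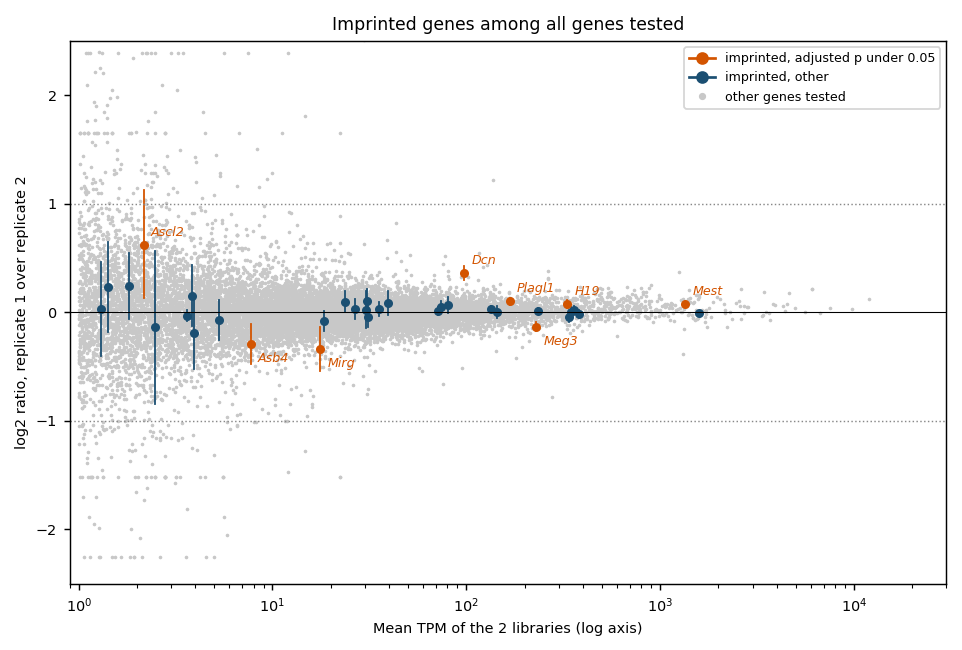
log2 ratio of scaled counts, replicate 1 over replicate 2, against mean TPM on a log axis for all genes tested (grey) and the 35 imprinted genes tested (points with 95% Clopper-Pearson intervals, counting error only); orange marks the 8 members with an adjusted p under 0.05, dotted lines a 2-fold difference, and 100 genes lie outside the ratio axis. All 35 members lie between -0.34 and 0.62, inside the dotted lines.

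Other imprinted genes, not among the 39, were less abundant as a list. Of 43 measured, 29 reached 1 TPM in both libraries. The median level was 30.8 TPM for the 39 members, against 7.57 TPM for these. The highest were Cd81, a tetraspanin of the Kcnq1ot1 domain, with 513 TPM in replicate 1 and 538 in replicate 2, and Commd1, a copper metabolism gene, with 320 and 340 TPM. Nap1l4, a histone chaperone gene, had 89.1 and 96.1 TPM, and H13, a signal peptide peptidase gene, had 76.2 and 78.8 TPM. Of 31 tested, 0 differed by 2-fold, and 8 were called at any size, 4 in each direction, against 22.5% of all genes tested.

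Genes that set or maintain imprints were present. Of 20 measured, 18 reached 1 TPM in both libraries, and the median was 44.5 TPM. The others were Ctcfl, with 4 and 3 counts, and Dppa3, at 0 counts in both, which are known from germ cells and the early embryo. The highest were Trim28, the corepressor that zinc finger proteins recruit to methylated control regions, with 369 TPM in replicate 1 and 424 in replicate 2, and Uhrf1, which brings the maintenance methyltransferase to replicating DNA, with 107 and 118 TPM. Ctcf, which binds the H19 insulator on the unmethylated chromosome, had 95.8 and 101 TPM, and the methyltransferase Dnmt3a had 64.5 and 71.6 TPM. Of 18 tested, 0 differed by 2-fold and 6 were called at any size, against 22.5% of all genes tested. All 6 were lower in replicate 1, as were 11.0% of all genes tested.

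Promoter windows were found in RefSeq for 31 of 39 members, with 48 windows in all. The median number of CG dinucleotides was 11.5 in these, against 7 in all windows, and GGGCGG was present on either strand in 24 of 48, against 35.7% of all windows. Several windows belong to the same gene or overlap, so they are not independent of each other. The window of Rian, at the start at 109603945, held 0 CG dinucleotides and that of Igf2r 34. Their levels had means of 80.9 and 71.1 TPM. The start group of Rian at that window held only 3.08% of its TPM in each library, so the level of Rian cannot be set against this window.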

How the data were processed

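Per the labels' protocols, RNA was extracted with mirVana and libraries were made by a Smart-seq protocol that the labels link. The authors deposited, per gene and per transcript, expected counts, TPM and posterior mean TPM, and the share of each transcript in its gene in percent; a deposited signal column, the effective length in nt, was also read. Per the deposited notes the annotation was GENCODE M4 on mm10; the sources used here do not name the program, its settings or the use of strand. Gene names and coordinates came from GENCODE M21 of the same build, in which 224 of 229 member transcripts were found, 185 with the same length, so some models differ. Spike-ins were left out of the count totals of genes. The deposited TPM was used unchanged, and its total includes spike-ins. Mouse genes summed to 891062 TPM in replicate 1 and 911774 in replicate 2, which lowers each TPM slightly in replicate 1 relative to replicate 2.

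For testing, each expected count was taken to the nearest whole number and compared with an exact binomial test (scipy, Python 3.11), with TMM sizes from edgeR 4.0.16 under R 4.3.3 and Benjamini-Hochberg adjustment over genes with a mean of at least 1 TPM. A fold limit of 2 applied, 0.5 was added to each count in ratios, and Clopper-Pearson intervals at 95% cover counting error only. The test was run first on simulated counts. The alternatives were other library sizes (DESeq2 1.42.0 size factors, summed counts, spike-ins), no filter, the edgeR exact test, other limits, posterior mean TPM and each library alone. The rule for naming genes took all members, the 4 highest of each further list, genes called at 2-fold, and transcripts with at least 5% of their gene. The 39 members have 85 such transcripts, of which the main ones are described. Sequences came from RefSeq tables of GRCm38.p6 and GENCODE transcripts. The members and lists were chosen with earlier results of these data known. Nothing in the labels beyond their wording shows that the libraries came from separate embryos, so spread between them may be partly technical.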

Additional observations from a re-analysis of the deposited data

How the results depend on the processing

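Each level is a mean of 2 libraries, and each library alone gave a median level of the members between 30.29 and 30.71 TPM (30.15 TPM with posterior mean TPM) and between 35 and 38 members at 1 TPM or more, and 36 members reached 1 TPM in both libraries with posterior mean TPM. The summed level of paternally expressed members was 3053 TPM with posterior mean TPM, against 3120 TPM. The count of members differing at any size was 28 with spike-in sizes, all lower in replicate 1, and 0 with the edgeR exact test, against 8. The edgeR count decides nothing here, since its dispersion was estimated from the same 2 libraries that it compares. The median log2 ratio of members was -0.32 with spike-in sizes, where that of all genes was -0.34. Over all genes, 11580 were called at any size with spike-in sizes and 116 with the edgeR test, against 3347. At 2-fold, 290 genes were called with spike-in sizes and 538 with no filter on low values, against 169. With a limit of 1.5-fold 1 member, Ascl2, differed, against 0 at 2-fold and 2.68% of all genes. By expected count the leading Grb10 start held 93.5% in place of 58.9%, and Igf2 groups 1 and 6 held 13.5% and 23.8% in place of 33.6% and 37.9%. Without models under 1000 nt the leading Gnas and Grb10 starts held 97.2% and 97.1%, and Igf2 groups 1 and 6 held 0%, which follows from leaving out those models. The share of Gs-alpha mRNA with the 45-base exon moved by no more than its spread with each library alone, posterior mean TPM or expected counts. No paired analysis was possible because the study has 1 group. Counts under 100 in both libraries, those of Usp29, Slc22a18, Phlda2, Klf14, Zim1 and Ascl2, limit what can be read from those genes.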

Other observations

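Among members with several models, the estimated shares of some models differed between the libraries more than the gene did. Peg10-202 held 54.3% of Peg10 TPM in replicate 1 and 23.3% in replicate 2, while Peg10-203 held 11.1% and 29.7%, and neither has an exonic base of its own. Sgce-205 held 54.4% of Sgce TPM in replicate 1 and 68.2% in replicate 2, and Sgce-211, a model with a retained intron, held 22.1% and 12.6%. Mirg-206 held 1.08% and 11.2% of Mirg TPM, on 1.75 and 25.4 counts. For these genes the sums over models are the firmer values.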
